A study of Sus scrofa with 12 samples.

Results

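The endometrial transcripts of 10 secreted factors of the TGF-beta family network were described in sows fed different levels of dietary fiber (DF) and N-carbamylglutamate (NCG). The genes were TGFB1, TGFB2 and TGFB3, the activin subunit genes INHBA and INHBB, the bone morphogenetic protein genes BMP2, BMP4 and BMP7, and the antagonist genes FST and GREM1. They were taken by gene name from the 20674 genes of the count table, and 10 of the 10 names were found. All 10 passed the filter on low counts that left 15351 genes for testing. The study crossed a low-fiber (LF) with a high-fiber (HF) diet and the absence with the presence of NCG, an analog of N-acetylglutamate, the cofactor that switches on the first step of the urea cycle and of arginine synthesis. Sows of the L − N group were fed 3.73% crude fiber without NCG and served as the basal control. The L + N group had the same fiber with 0.05% NCG, the H − N group 7.46% crude fiber without NCG, and the H + N group 7.46% crude fiber with 0.05% NCG. The sows were Landrace × Yorkshire crosses, and all groups were fed their diet over 114 days from breeding through gestation. RNA of endometrium, the inner lining of the uterus, was sequenced from 3 sows of each group, 12 in all.

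Ligands of the TGF-beta family are secreted dimers that bring together type I and type II receptor kinases, which in turn phosphorylate SMAD transcription factors. TGF-betas and activins act mainly through SMAD2 and SMAD3, and bone morphogenetic proteins (BMPs) through SMAD1, SMAD5 and SMAD9, while antagonists such as follistatin and gremlin bind the ligands outside the cell and keep them from their receptors. In the uterus these factors are known for their parts in stromal differentiation, remodeling of the matrix, immune regulation at the interface with the conceptus and repair after pregnancy.

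Library totals were 15797001 to 16916495 counts (L − N), 14701681 to 19309724 (L + N), 14369781 to 18549636 (H − N), with 15155660 to 17714918 (H + N). Values are given as CPM, the count of a gene relative to the scaled size of its library. The libraries did not stand at equal distances from each other. On the first principal component of the log2 CPM of all genes tested, which carried 26.7% of the variance, L − N replicates 2 and 3 lay at −67.2 and −65.5, L − N replicate 1 lay at −22.6, and the other 9 libraries lay between 1.06 and 28.2. L − N was thus the group apart, and its replicate 1 stood between it and the rest, so the fold changes of INHBB, TGFB1, BMP7 and, in H − N, BMP2 are also given without that library. The tissue label was set beside marker genes. The endometrial markers ESR1, PGR, HOXA10, HOXA11, ACP5 and MUC1 were detected in all 12 libraries, with a mean of ESR1 between 450 CPM in L − N and 1069 CPM in H + N. Their detection does not measure the share of muscle tissue in a sample. Smooth muscle markers, given below, summed to 5197 CPM in L − N replicate 1 and to 797 to 2001 CPM in the other libraries. The trophoblast markers GCM1, DLX3 and ELF5 summed to 0.878 to 3.37 CPM per library, with ELF5 called higher in H + N than in L − N.

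Measured per transcript length as FPKM (fragments relative to transcript length and library total), which allows levels to be compared between genes, TGFB1 had the highest mean over the 12 libraries at 38.2 ± 14.2 (SD, n = 12), followed by INHBB at 22.2 ± 9.20 (SD, n = 12) and GREM1 at 15.3 ± 11.999 (SD, n = 12). TGFB3 (12.99 FPKM), BMP4 (8.32 FPKM), TGFB2 (7.26 FPKM) and BMP7 (4.23 FPKM) held the middle of the order. FST (2.25 FPKM), BMP2 (2.06 FPKM) and INHBA (1.73 FPKM) were the lowest. TGFB1 stood above INHBB in 11 of the 12 libraries and BMP7 above FST in 12 of 12. GREM1 and TGFB3 could not be ordered, since GREM1 was the higher of the pair in 6 of 12 libraries, and all other neighbors in the order changed places in 2 to 4 of the libraries.

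**Figure D1:**
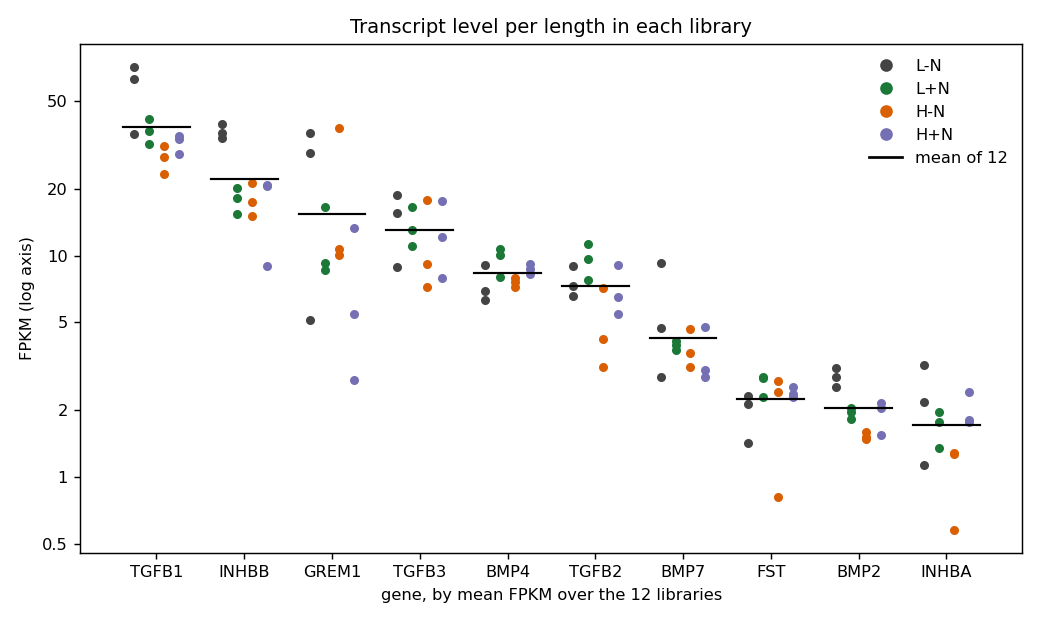
FPKM of the 10 genes in each of the 12 libraries on a log axis, with points colored by group and the mean of the 12 libraries as a black line. TGFB1 has the highest mean (38.2) and INHBA the lowest (1.73), and the points of GREM1 spread from 2.74 to 37.5.

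The share of single genes within each ligand class was taken per length. INHBB, which encodes the beta-B subunit of activin B, made up 94.4% ± 2.27 (SD, n = 3) of the summed FPKM of INHBA and INHBB in L − N, with 91.4% ± 0.462 (L + N), 94.4% ± 2.28 (H − N) and 88.3% ± 4.60 (H + N) elsewhere. TGFB1 made up 70.4% ± 12.96 (SD, n = 3) of the summed FPKM of TGFB1, TGFB2 and TGFB3 in L − N and 61.3% ± 2.76 in L + N, with 63.9% ± 9.77 in H − N and 62.5% ± 7.44 in H + N. BMP4 held 47.7% ± 13.4 (SD, n = 3) of the FPKM of BMP2, BMP4 and BMP7 in L − N, with 61.7% ± 3.50 (L + N), 58.7% ± 3.94 (H − N) and 61.5% ± 4.03 (H + N) elsewhere. In L − N replicate 2 the BMP4 share was 34.8%, and BMP7 (9.28 FPKM) stood above BMP4 (6.30 FPKM). The groups overlapped in the range of the TGFB1 share. The INHBB share of every library with NCG (83.18% to 92.11%) lay below that of every library without it (92.22% to 96.93%). The ranges came close at H + N replicate 2 (92.11%) and H − N replicate 2 (92.22%), and INHBA was read from only 23 to 108 counts per library. The composition of each class was not tested.

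To ask which of the genes differed anywhere in the 2 × 2 design, the 4 group means were compared in one edgeR quasi-likelihood fit over the 12 libraries, with Benjamini-Hochberg adjustment over all genes tested and an adjusted p-value under 0.05 as threshold. INHBB, TGFB1 and BMP2 passed, 3 of the 10 genes, beside 6.96% of all genes tested. DESeq2 on the same libraries called the same 3 genes, among 3365 of all genes. The number depended on single libraries, with 1 called when the library left out was L − N replicate 1, replicate 2 or 3 of H − N, or H + N replicate 1. The 1 gene was TGFB1 without L − N replicate 1, INHBB without H − N replicate 3 or H + N replicate 1, and TGFB2, not among the 3 above, without H − N replicate 2. The number was 0 on leaving out replicate 2 or 3 of L − N, any 1 L + N library or H − N replicate 1. The number over all genes moved as well, from 1068 to 4 on leaving out L − N replicate 3 and to 1732 on leaving out L − N replicate 1. For contrasts between groups, a gene was called when it had in addition an absolute log2 fold change above 1, the thresholds of the study. Against L − N, the number of the 10 genes called was 1 (L + N), 2 (H − N) and 1 (H + N), all of them lower than in L − N. These 3 comparisons share the L − N libraries and are therefore not independent.

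**Figure D2:**
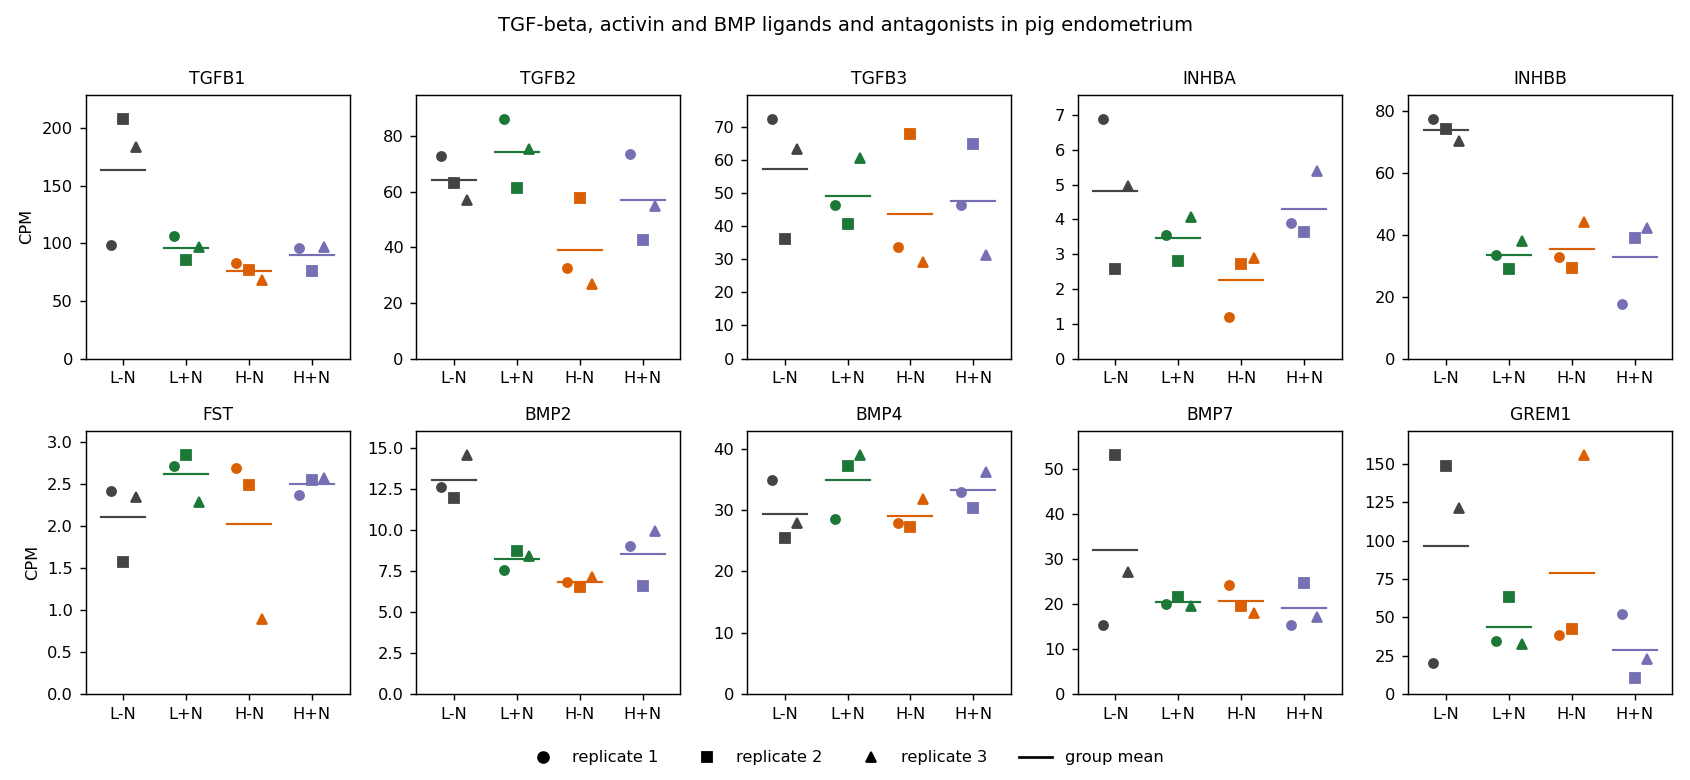
CPM of each gene in every library, with groups on the x axis, replicates marked by the shape of the point and the group mean as a line, on axes that start at 0. The L − N points of INHBB and BMP2 lie above all other points, while in TGFB1 and GREM1 the L − N replicate 1 point and in BMP7 the L − N replicate 2 point lies apart from the others of its group.

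INHBB (gene identifier 397490, Sscrofa11.1, chromosome 15, 30999994 to 31004405, minus strand) was measured at 77.4, 74.2 and 70.3 CPM in the L − N libraries, replicates 1 to 3. Its values were 33.4, 29.1 and 37.9 CPM in L + N, 32.8, 29.3 and 44.2 CPM in H − N, and 17.6, 38.9 and 42.4 CPM in H + N. All 3 L − N libraries stood above all 9 others, and the ranges of the other 3 groups overlapped. Such a separation of L − N from above was also found in 5.28% of all genes tested, and among the 10 genes it was found in INHBB and BMP2. Over the 4 groups, the adjusted p of INHBB by edgeR's quasi-likelihood test was 0.0392. Its log2 fold change was −1.15 (SE 0.27) in L + N, −1.06 (SE 0.27) in H − N and −1.17 (SE 0.27) in H + N against L − N, with edgeR's adjusted p of 0.0267, 0.0488 and 0.0310, and the transcript fell in 3 of 3 libraries in each comparison. Over the 12 fits that left out 1 library, these values ran from −1.23 to −1.05, −1.25 to −0.94 and −1.39 to −0.88, short of the fold threshold in H − N without H − N replicate 2 and in H + N without H + N replicate 1, and the calls changed with the library left out. For L + N the call was lost without L − N replicate 2 or 3 or any L + N library (edgeR's adjusted p up to 0.103), and for H + N without L − N replicate 2 or 3 or H + N replicate 1 (up to 0.0999731). For H − N it was lost without any 1 library of L − N, L + N or H − N (edgeR's adjusted p up to 0.140, without L − N replicate 3). Without L − N replicate 1, the values of INHBB were −1.11 in L + N (edgeR's adjusted p = 0.0410), −1.03 in H − N (0.0530) and −1.13 in H + N (0.0406).

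TGFB1, the ligand known for its control of matrix synthesis and immune tolerance (gene identifier 397078, chromosome 6, 49332169 to 49348642, minus strand), was measured at 98.6, 207 and 184 CPM in L − N. It stood at 107, 85.4 and 96.3 CPM in L + N, 82.5, 76.4 and 68.1 CPM in H − N, and 95.8, 75.9 and 97.1 CPM in H + N. L − N replicates 2 and 3 were above every other library, whereas L − N replicate 1 lay within the range of L + N and just above that of H + N. The H − N libraries were all below the L − N libraries, a pattern whose share over all genes was not counted. Over the 4 groups, edgeR's adjusted p was 0.0407. TGFB1 fell in H − N against L − N by 1.11 on the log2 scale (SE 0.23, edgeR's adjusted p = 0.0279, lower in 3 of 3 libraries). In H + N the log2 fold change of −0.87 (SE 0.23, edgeR's adjusted p = 0.0441) passed the test but not the fold threshold. That H + N value passed the test in 2 of the 12 fits that left out 1 library (edgeR's adjusted p up to 0.145). In L + N the value was −0.76 (SE 0.23), with an adjusted p of 0.0578 by edgeR and 0.0141 by DESeq2. L − N replicate 1 decided the side of the threshold, because without it all 3 comparisons were called, with log2 fold changes of −1.03 in L + N (edgeR's adjusted p = 0.00474), −1.37 in H − N (0.000518) and −1.13 in H + N (0.00243). Conversely, the call in H − N was lost without L − N replicate 2 (−0.90, edgeR's adjusted p = 0.0816), without L − N replicate 3 (−1.01, 0.116) and without any 1 H − N library. TGFB1 shares 373 bp with the gene LOC110261354 on the same strand, so reads in that stretch cannot be assigned to either gene with certainty.

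BMP2, a ligand needed for stromal decidualization in rodents (gene identifier 100157103, chromosome 17, 15750487 to 15762982, plus strand), was measured at 12.6, 11.9 and 14.6 CPM in L − N. Its values were 7.57, 8.73 and 8.37 CPM in L + N, 6.79, 6.52 and 7.10 CPM in H − N, and 9.03, 6.57 and 9.93 CPM in H + N. As with INHBB, the 3 L − N libraries stood above all 9 others, while the range of H + N overlapped those of L + N and H − N. Over the 4 groups, edgeR's adjusted p was 0.0451. Against L − N, the log2 fold change of BMP2 was −0.66 (SE 0.19) in L + N, −0.94 (SE 0.19) in H − N and −0.61 (SE 0.19) in H + N, with edgeR's adjusted p of 0.0525, 0.0279 and 0.0688. By edgeR only the H − N value passed the test, and it was short of the fold threshold, while by DESeq2 all 3 values passed the test (adjusted p = 0.00716, 0.000138 and 0.0141), each short of the fold threshold. With each library left out in turn, it lay between −0.997 and −0.85, and it passed the test in 7 of these 12 fits, that without L − N replicate 1 included (−0.96, edgeR's adjusted p = 0.0179). BMP2 was read from 94 to 217 counts per library, fewer than TGFB1 (987 to 3309) or INHBB (267 to 1216).

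**Figure D3:**
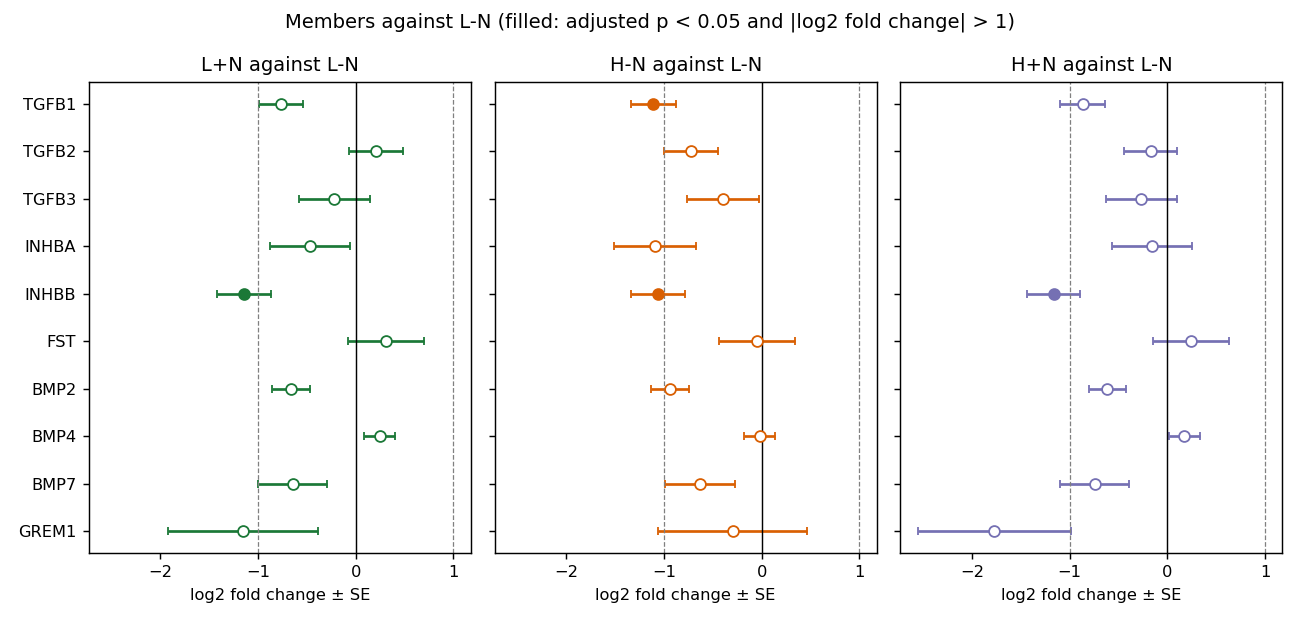
Log2 fold change of each gene against L − N in the 3 other groups with its standard error, where filled points mark the called genes and dashed lines the fold threshold. INHBB is filled in all 3 panels and TGFB1 in that of H − N (−1.11), and all 10 values of H − N lie below 0.

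To examine the effect of NCG on the low-fiber diet, L + N was compared with L − N. INHBB was the 1 gene called of the 10, beside 0.671% of all genes tested called lower, and 0 of the 10 were called higher, beside 3.32% of all genes. At an adjusted p under 0.05 without regard to the fold, 1 of the 10 was lower, beside 3.63% of all genes. The median log2 fold change of the 10 genes was −0.56 and that of all genes −0.02, and 3 of the 10 had a value above 0. TGFB2 (0.21), FST (0.31) and BMP4 (0.25) were those with values above 0, and none of these 3 passed edgeR's test.

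To examine the effect of fiber without NCG, H − N was compared with L − N. TGFB1 and INHBB were called lower, 2 of the 10 beside 2.01% of all genes tested, and 0 of the 10 were called higher, beside 0.892%. With BMP2, 3 of the 10 were lower at an adjusted p under 0.05 at any fold, beside 3.71% of all genes. All 10 log2 fold changes were below 0, with a median of −0.68, while 46.5% of all genes were below 0 and their median was 0.03. The values ran from −1.11 in TGFB1 to −0.02 in BMP4. The shared sign rested on single libraries, since BMP4 was 0.12 without L − N replicate 1, FST 0.30 without H − N replicate 3 and GREM1 0.16 without L − N replicate 2. Neither call was made when the fit held only the 6 libraries of H − N and L − N, in which 3 of all genes were called.

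To examine fiber and NCG together, H + N was compared with L − N. INHBB was called lower, 1 of the 10 beside 1.28% of all genes tested, and 0 were called higher, beside 2.29% of all genes. At an adjusted p under 0.05 at any fold, INHBB and TGFB1 were lower, beside 3.66% of all genes. Of the 12 fits that left out 1 library, INHBB passed the test in 9 and TGFB1 in 2. The median of the 10 genes was −0.44, that of all genes 0.02, and BMP4 (0.17) and FST (0.24) had values above 0 that did not pass the test. In a fit of the 6 libraries of these groups alone, 0 of the 10 genes were called by edgeR (87 of all genes), with INHBB at −1.20.

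The design also allows each factor to be averaged over the other. For DF, both HF groups against both LF groups, 0 of the 10 genes were called by edgeR, while 0.0195% of all genes were called lower and 0.00651% higher, and 4 of the 10 had an unadjusted p under 0.05 (TGFB1, TGFB2, INHBB and BMP2), beside 19.5% of all genes. DESeq2 called 0 of the 10. The log2 values were all below 0, with −0.61 for TGFB1 (SE 0.16, edgeR's adjusted p = 0.0998) as the lowest, but FST was 0.12 without H − N replicate 3 and BMP4 0.03 without L − N replicate 1. In DESeq2, TGFB1 (adjusted p = 0.0131) and BMP2 (0.0274) passed the test for DF and INHBB (0.0208) for NCG, all short of the fold threshold. By edgeR without L − N replicate 1, TGFB1 passed the test for DF (−0.74, edgeR's adjusted p = 0.00353) and for NCG (−0.39, 0.0411) but not the fold threshold, and 331 of all genes were called for DF instead of 4. For NCG, both groups with NCG against both without, edgeR called 0 of the 10 genes, beside 0.13% of all genes called lower and 1.67% higher. An unadjusted p under 0.05 was found in 2 of the 10, INHBB (−0.62) and GREM1 (−1.32), beside 23.6% of all genes, and DESeq2 called 0 of the 10.

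The interaction of DF with NCG, which asks whether NCG acted differently on the HF and the LF diet, was called in 0 of the 10 genes by edgeR and in 0% of all genes tested. At an unadjusted p under 0.05 there were 4 of the 10, beside 12.8% of all genes, and DESeq2 called 0 of the 10 and 184 of all genes, with BMP2 (0.998, adjusted p = 0.0322 by DESeq2) short of the fold threshold alone. These 4 were BMP2 (0.99, SE 0.27), TGFB1 (1.01, SE 0.32), INHBB (1.04, SE 0.39) and INHBA (1.41, SE 0.59) on the log2 scale, with edgeR's adjusted p of 0.257, 0.287, 0.320 and 0.355. A positive value means that the difference of H + N from H − N lay above that of L + N from L − N. In INHBB, for example, NCG went with a log2 difference of −1.15 on the LF diet and −0.10 on the HF diet. Without L − N replicate 1 the interaction of TGFB1 was called (1.27, edgeR's adjusted p = 0.0129), in a fit that called 346 of all genes.

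The H + N group was also compared with H − N and with L + N. For NCG on the HF diet (H + N against H − N), 0 of the 10 genes and 0% of all genes were called by edgeR, 1 of the 10 had an unadjusted p under 0.05 (INHBA, 0.93) beside 8.67% of all genes, and DESeq2 called 0 of the 10. For fiber with NCG (H + N against L + N), 0 of the 10 genes and 0% of all genes were called by edgeR, 0 of the 10 had an unadjusted p under 0.05 (4.68% of all genes), and DESeq2 called 0 of the 10. The log2 values of TGFB1, INHBB and BMP2 in H + N against L + N were −0.10 (SE 0.23), −0.02 (SE 0.27) and 0.05 (SE 0.19). With 3 libraries a group, differences as small as these could not be told from 0.

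Of the other TGF-beta ligands, TGFB2 (chromosome 10, 8306136 to 8435307, plus strand) ran from 27.0 to 86.1 CPM over the 12 libraries and TGFB3 (chromosome 7, 99133873 to 99162239, minus strand) from 29.1 to 72.2 CPM. TGFB2 had its lowest group mean in H − N at 39.1 ± 16.3 CPM (SD, n = 3), against 64.3 ± 8.08 in L − N, 74.2 ± 12.5 in L + N and 57.1 ± 15.6 in H + N. The H − N libraries overlapped those of L − N and H + N, and the log2 fold change of −0.72 against L − N (SE 0.28, edgeR's adjusted p = 0.141) did not pass the test. Without H − N replicate 2, its highest H − N library, that value was −1.11 and TGFB2 passed the test over the 4 groups, and without H − N replicate 3 the value was −0.51. TGFB3 had group means between 43.5 and 57.1 CPM with an SD of 10.1 to 21.1 CPM, so that no order of the groups could be told from the spread. The gene shares 6351 bp with IFT43 on the opposite strand, and as the strand used in counting is not given in the sources used here, its counts may hold reads of that gene.

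INHBA, the beta-A subunit of activin A, had the lowest mean FPKM of the 10 genes, with 23 to 108 counts per library. It was measured at 6.88, 2.57 and 4.97 CPM in L − N, 3.54, 2.79 and 4.05 CPM in L + N, 1.19, 2.70 and 2.90 CPM in H − N, and 3.89, 3.64 and 5.40 CPM in H + N. The H + N libraries were all above those of H − N, a pattern whose share over all genes was not counted. The range of L − N covered those of both groups with NCG. In H − N, the log2 fold change of −1.09 relative to L − N (SE 0.42, edgeR's adjusted p = 0.142) was about as large as that of INHBB, yet with a larger error it did not pass. The count table places INHBA on chromosome 18 (52889684 to 52909260, plus strand), while the RefSeq gene table gives an entry with the same gene identifier on chromosome 12, so its position is uncertain.

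Of the other BMP ligands, BMP4 (chromosome 1, 183415989 to 183422888, minus strand) was the steadiest of the 10 genes. Its highest library, at 39.0 CPM, was 1.53 times its lowest, at 25.5 CPM, and its group means lay between 29.0 ± 2.49 CPM in H − N and 34.9 ± 5.60 CPM in L + N (SD, n = 3). BMP7 (chromosome 17, 57567770 to 57676516, minus strand) was measured at 15.4, 53.2 and 27.1 CPM in L − N, at 19.6 to 21.6 CPM in L + N, 18.0 to 24.1 CPM in H − N and 15.3 to 24.7 CPM in H + N. A single library, L − N replicate 2, was above all others by a wide margin, and L − N replicate 1 was the second lowest of the 12. With all libraries, neither edgeR nor DESeq2 called BMP7 in any comparison, and the log2 fold changes against L − N were −0.65, −0.63 and −0.75 in L + N, H − N and H + N. Without L − N replicate 1 they were −0.98, −0.96 and −1.08 (edgeR's adjusted p = 0.0444, 0.0460 and 0.0343, the last one called), and without L − N replicate 2 they were −0.06, −0.05 and −0.16. In the fit without L − N replicate 1, 948 of all genes were called in H + N, against 549 with all libraries.

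Among the antagonists, FST, which encodes follistatin and binds activins with high affinity (chromosome 16, 32806341 to 32811382, plus strand), ran from 0.897 to 2.85 CPM. This rests on 13 to 56 counts per library, and group means lay between 2.03 and 2.62 CPM. The lowest library was H − N replicate 3, and the ranges of H − N and L − N overlapped all other groups. GREM1, an antagonist of BMP2 and BMP4 (chromosome 1, 136617041 to 136629293, plus strand), varied most of all 10 genes. It was measured at 20.3, 149 and 121 CPM in L − N, 34.2, 63.1 and 32.6 CPM in L + N, 38.2, 42.0 and 156 CPM in H − N, and 52.4, 10.4 and 22.4 CPM in H + N. L − N replicates 2 and 3 and H − N replicate 3 held the high values, 3 libraries of 2 groups, and the highest library was 15.0 times the lowest. For H + N relative to L − N, GREM1 had a log2 fold change of −1.77 (SE 0.78, edgeR's adjusted p = 0.170), which was −2.57 on leaving out H + N replicate 1 and −1.32 on leaving out L − N replicate 2. In H − N against L − N, its value of −0.30 (SE 0.76) was 0.16 without L − N replicate 2 and −1.27 without H − N replicate 3.

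The remaining genes of the network were followed in 8 lists that cover other ligands, receptors and co-receptors, other antagonists, latency and activation of TGF-beta, SMADs and their regulators, target genes of TGF-beta, target genes of BMP, and the hedgehog to BMP2 axis of the uterine stroma. Of their 104 genes, 84 passed the filter on low counts. In L + N against L − N, 6 of the 84 were called, 4 higher and 2 lower, in H − N 9 were called, 4 higher and 5 lower, and in H + N 6 were called, 4 higher and 2 lower. Of all 15351 genes tested, 613, 446 and 549 were called in these comparisons. The median log2 fold changes of the 84 were −0.08, −0.00127 and −0.05, close to those of all genes (−0.02, 0.03 and 0.02). For DF 1 gene was called (4 of all genes) and for NCG 3 (276 of all genes). For the interaction edgeR called 0 of the 84, with 19 at an unadjusted p under 0.05 (12.8% of all genes) and 6 called by DESeq2. Over the 4 groups, 14 of the 84 passed edgeR's test, beside 6.96% of all genes. These counts rested on single libraries too. Over the 4 groups, the count was 0 on leaving out L − N replicate 3, so that every such result of the genes named below was lost in that fit, and 1 on leaving out L + N replicate 2. It was 5 to 8 on leaving out L − N replicate 2, replicate 1 or 3 of L + N, or H + N replicate 1, and 9 to 17 in the other fits. Leaving out 1 library gave 0 to 2 genes for NCG in each of the 12 fits, 0 to 3 for DF (3 without L − N replicate 1), and for the interaction 6 without L − N replicate 1 and 0 in the other fits. On leaving out 1 library, the count in L + N was 12 (L − N replicate 1), 2 (L − N replicate 3 or L + N replicate 2) and 3 (L + N replicate 3). In H − N it was 14, 4 and 1 on leaving out replicates 1, 2 and 3 of L − N, 0 on leaving out H − N replicate 1, and 5 on leaving out replicate 2 or 3 of H − N, L + N replicate 3 or H + N replicate 1. In H + N it was 0 without L − N replicate 3 or H + N replicate 1 and 1 without H + N replicate 3.

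**Figure D4:**
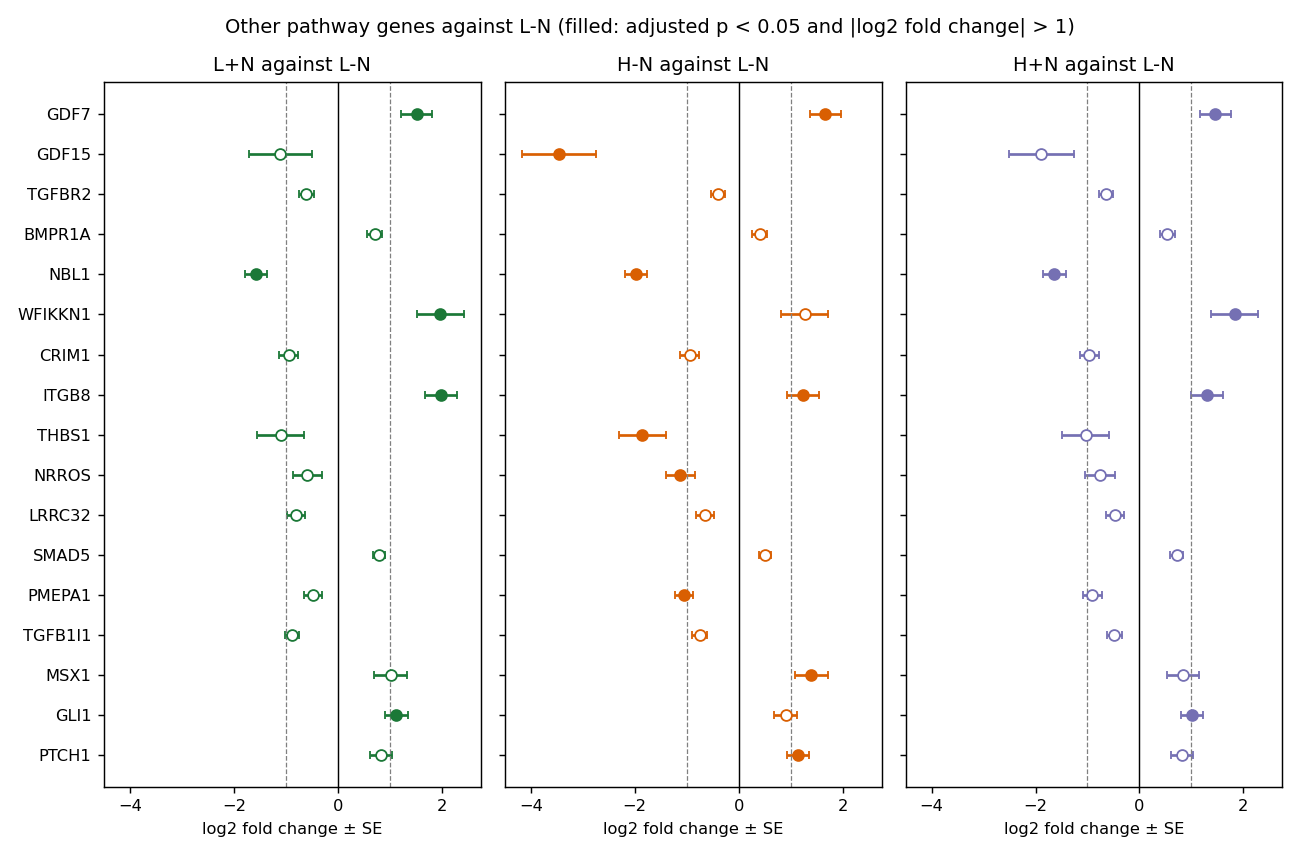
Log2 fold change against L − N with its standard error for genes of the 8 lists named in the text, ordered by role from ligands to targets. Filled points mark called genes and dashed lines the fold threshold, with GDF7 and ITGB8 filled above 0 and NBL1 filled below 0 in all 3 panels.

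Among the other ligands, 11 of 24 were tested. GDF7, a BMP-type growth and differentiation factor, rose in each comparison with L − N, with 23.7 ± 6.53 CPM (L − N), 67.7 ± 15.1 (L + N), 75.3 ± 23.8 (H − N), with 65.1 ± 18.6 (H + N) as means (SD, n = 3). Its log2 fold changes were 1.51, 1.67 and 1.46 (SE 0.30 each), with edgeR's adjusted p of 0.0144, 0.0206 and 0.0232, and it was higher in 3 of 3 libraries of each group. GDF15, a stress-induced ligand, was called in H − N at −3.45 (SE 0.72, edgeR's adjusted p = 0.0279), at a level of 0.190 ± 0.141 CPM against 2.13 ± 1.43 in L − N (SD, n = 3), where single counts weigh heavily. GDF7 kept its call in 9 of the 12 fits that left out 1 library in each of these comparisons, and GDF15 in 8 of 12. The libraries without which GDF15 lost it were L − N replicates 2 and 3 and H − N replicates 1 and 2. GDF7 lost it without L − N replicate 3 in all 3 comparisons, and further without L + N replicates 2 and 3 in the first, L − N replicate 2 and H − N replicate 1 in the second, and H + N replicates 1 and 3 in the third.

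Of the receptors and co-receptors, 17 of 19 were tested and 0 were called in any contrast by edgeR or DESeq2, while 4, 7 and 5 had an unadjusted p under 0.05 in L + N, H − N and H + N, beside 27.8%, 24.4% and 27.5% of all genes. Over the 4 groups, TGFBR2 and BMPR1A passed edgeR's test. TGFBR2, the type II receptor that binds TGF-beta ligands, had means of 727 ± 83.6 CPM (L − N), 478 ± 18.5 (L + N), 553 ± 76.8 (H − N), with 467 ± 38.3 (H + N; SD, n = 3). Its log2 fold changes against L − N were −0.60 in L + N (edgeR's adjusted p = 0.0215), −0.39 in H − N (0.108) and −0.64 in H + N (0.0252). BMPR1A, a type I receptor of BMP2 and BMP4, lay in the opposite direction, at 0.71 in L + N (edgeR's adjusted p = 0.0161), 0.41 in H − N and 0.53 in H + N (0.0469). Its gene shares 206 bp with MMRN2 on the opposite strand.

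Of the other antagonists, 12 of 17 were tested. NBL1, a secreted BMP antagonist of the DAN family, fell in all 3 comparisons, with means of 307 ± 82.5 CPM (L − N), 104 ± 11.7 (L + N), 78.1 ± 6.50 (H − N), with 98.8 ± 22.6 (H + N; SD, n = 3). Its lowest L − N library, at 212 CPM, was above the highest of the others, at 124 CPM, a separation found in 5.28% of all genes tested. The log2 fold changes were −1.57, −1.97 and −1.64 (SE 0.21, 0.22 and 0.21), with edgeR's adjusted p of 0.00818, 0.00796 and 0.0136, and the call held in 12, 11 and 10 of the 12 fits that left out 1 library. It was lost in H − N without H − N replicate 1 and in H + N without L − N replicate 3 or H + N replicate 1. NBL1 was also the 1 list gene called for DF, at −1.02 (edgeR's adjusted p = 0.0487), a call that held in 2 of the 12 fits, those without L − N replicate 1 and without H + N replicate 2. WFIKKN1, an inhibitor of myostatin and related ligands, rose in L + N (1.97, SE 0.45, edgeR's adjusted p = 0.0227) and H + N (1.83, SE 0.45, 0.0350) from a low level of 0.583 ± 0.238 CPM in L − N (SD, n = 3), and it was called for NCG at 1.27 (SE 0.31, 0.0332). Those calls held in 7, 5 and 3 of the 12 fits, and each was lost without L − N replicate 2, L − N replicate 3 or any 1 of the L + N libraries. CRIM1, a transmembrane protein that binds BMPs, differed over the 4 groups and lay at −0.94, −0.94 and −0.97 against L − N, under the fold threshold. It shares 625 bp with FEZ2 on the opposite strand.

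All 10 genes of latency and activation were tested. ITGB8, the beta subunit of an integrin that frees active TGF-beta from its latent complex, rose in all 3 comparisons, with means of 23.2 ± 1.36 CPM (L − N), 91.2 ± 20.3 (L + N), 54.7 ± 26.2 (H − N), with 57.2 ± 11.02 (H + N; SD, n = 3). All libraries of the other groups were above those of L − N, with log2 fold changes of 1.98, 1.24 and 1.30 (SE 0.31, 0.30 and 0.30; edgeR's adjusted p = 0.00818, 0.0413 and 0.0302), and for NCG the value was 1.02 (SE 0.21, 0.0169). How many of all genes lay above L − N in this way was not counted. The call in L + N held in all 12 fits that left out 1 library, and those in H − N, in H + N and for NCG in 2, 7 and 7. In H − N it held without L − N replicate 1 or H + N replicate 3, in H + N it was lost without L − N replicates 2 or 3 or any 1 H + N library, and for NCG without L − N replicate 3, L + N replicate 2, H − N replicates 1 or 2 or H + N replicate 1. THBS1, thrombospondin, another activator of latent TGF-beta, fell in H − N (−1.86, SE 0.45, edgeR's adjusted p = 0.0421) from 2304 ± 857 to 636 ± 385 CPM (SD, n = 3), and NRROS, a docking protein of latent TGF-beta on myeloid cells, fell in H − N by 1.12 on the log2 scale (SE 0.28, edgeR's adjusted p = 0.0457). Their calls held in 2 and 4 of the 12 fits, both without L − N replicates 2 and 3 among those in which they were lost. LRRC32, which tethers latent TGF-beta to the cell surface, differed over the 4 groups and lay at −0.80 in L + N (edgeR's adjusted p = 0.0174) and −0.65 in H − N (0.0488), short of the fold threshold.

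All 15 SMADs and regulators were tested, and 0 were called in a contrast by edgeR or DESeq2, with 3, 2 and 3 at an unadjusted p under 0.05 in L + N, H − N and H + N (27.8%, 24.4% and 27.5% of all genes). SMAD5, a mediator of BMP signals, was the 1 that differed over the 4 groups (edgeR's adjusted p = 0.0207). Its means were 91.2 ± 8.05 CPM (L − N), 158 ± 4.16 (L + N), 130 ± 16.7 (H − N), with 150 ± 15.8 (H + N; SD, n = 3), with no overlap between L − N and the other groups. The share of all genes with that separation was not counted. The log2 fold changes of 0.79, 0.51 and 0.72 were under the fold threshold, with edgeR's adjusted p of 0.00818, 0.0410 and 0.0158.

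All 8 TGF-beta target genes were tested. PMEPA1, a feedback inhibitor induced by TGF-beta, fell in H − N (−1.05, SE 0.18, edgeR's adjusted p = 0.0192) and lay at −0.90 in H + N (SE 0.18, 0.0211), and its call was lost without L − N replicate 1, L − N replicate 3 or H − N replicate 1. TGFB1I1 differed over the 4 groups, at −0.88 in L + N (edgeR's adjusted p = 0.00818), −0.75 in H − N (0.0233) and a value in H + N that did not pass. Median log2 fold changes of the 8 targets were −0.26, −0.43 and −0.28 in L + N, H − N and H + N, beside −0.02, 0.03 and 0.02 for all genes. Values lay above 0 in 2, 2 and 3 of the 8. In L + N, 1 of the 8 was higher and 2 were lower at edgeR's adjusted p under 0.05 at any fold. Of all genes, 1474 passed there in either direction.

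All 9 BMP targets were tested, with medians of 0.15 (L + N), 0.60 (H − N) and 0.38 (H + N) relative to L − N. In these comparisons, values lay above 0 in 5, 8 and 7 of the 9 targets. Of all genes, 52.3%, 46.5% and 48.3% lay below 0 and the rest at or above it. MSX1, a homeobox factor of the uterine epithelium and stroma, was the 1 called, from 55.6 ± 32.6 CPM in L − N to 147 ± 25.6 in H − N (SD, n = 3; log2 fold change 1.40, SE 0.31, edgeR's adjusted p = 0.0327). That call held in 3 of the 12 fits, those that left out L − N replicate 1 or replicate 2 or 3 of H + N. Of the 6 genes of the hedgehog to BMP2 axis, GLI1, a transcription factor and readout of hedgehog signals, rose in L + N (1.13, SE 0.22, edgeR's adjusted p = 0.0130) and H + N (1.01, SE 0.22, 0.0258), and lay at 0.90 in H − N. PTCH1, the hedgehog receptor and a target of GLI factors, rose in H − N (1.14, SE 0.21, edgeR's adjusted p = 0.0229), with 0.83 and 0.81 in the other groups. GLI1 lost its call in L + N without L − N replicate 3 or L + N replicate 2, and in H + N without L − N replicates 1 or 3 or any 1 H + N library, and PTCH1 lost it without L − N replicates 2 or 3 or H − N replicates 1 or 3. GLI1 shares 76 bp with ARHGAP9 on the opposite strand.

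**Figure D5:**
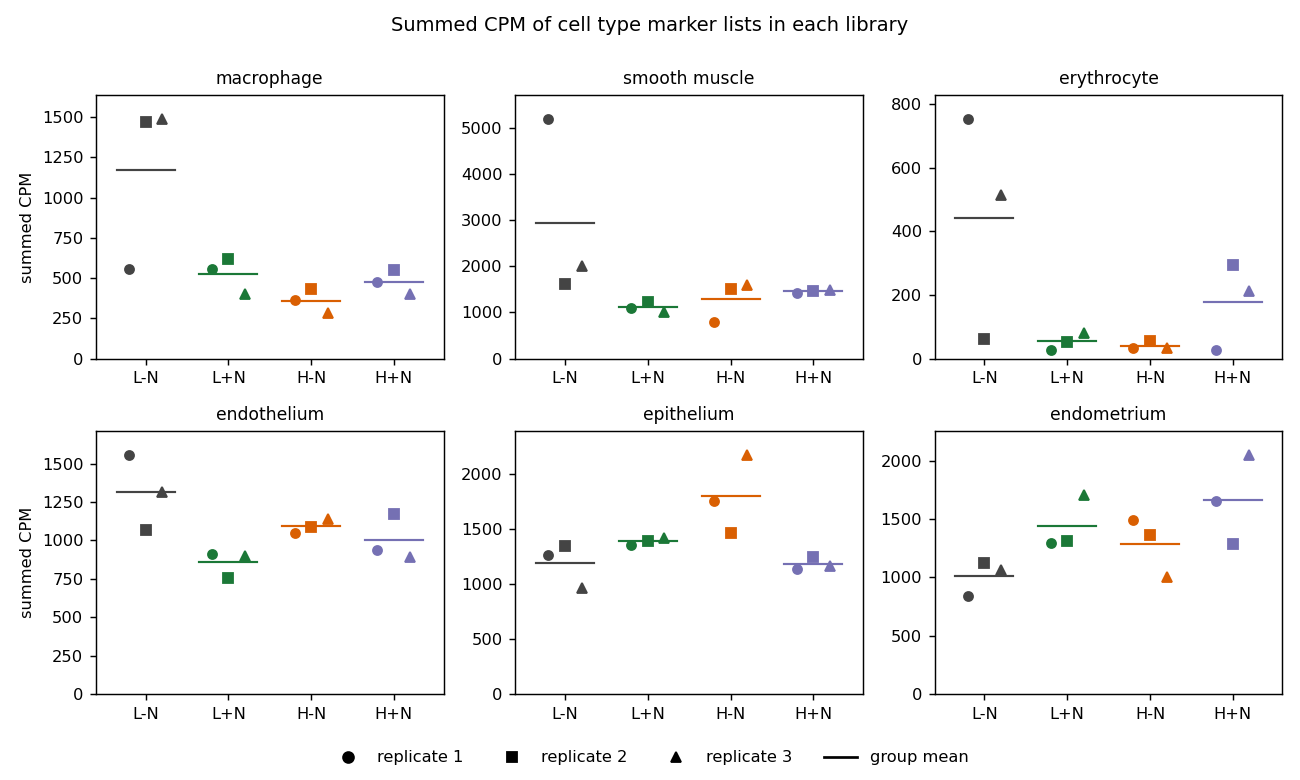
Summed CPM of 6 lists of cell type markers in every library, with groups on the x axis, replicates marked by the shape of the point and the group mean as a line, on axes that start at 0. The macrophage sums of L − N replicates 2 and 3 (1468 and 1487) and the smooth muscle sum of L − N replicate 1 (5197) are above all other libraries.

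Markers of other cell types moved with L − N as well. Of the 5 macrophage markers (CD68, CD163, CSF1R, MRC1 and AIF1), the number called lower than in L − N was 1 (L + N), 3 (H − N) and 2 (H + N), and none was at 0. Their summed level was 557, 1468 and 1487 CPM in the L − N libraries, replicates 1 to 3. It was 558, 617 and 402 CPM in L + N, 366, 430 and 281 CPM in H − N, and 478, 551 and 401 CPM in H + N. The high libraries, L − N replicates 2 and 3, were the high libraries of TGFB1, and L − N replicate 1 lay among the other groups in both. The most abundant of these markers was CD163, with a mean of 523 CPM in L − N and 129 to 176 CPM in the other groups. In bulk tissue, fewer cells of a type and less RNA per cell cannot be told apart, and the part of macrophage RNA in the values of TGFB1 and the other genes was not tested.

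Of the 6 smooth muscle markers (MYH11, ACTG2, DES, CNN1, ACTA2 and TAGLN), edgeR called 2 lower in L + N than in L − N, and 0 in H − N and H + N. DESeq2 called 5, 2 and 2, and 6, 3 and 3 had an unadjusted p under 0.05 by edgeR. Their sum was 5197, 1614 and 2001 CPM in L − N and 797 to 1595 CPM in the other libraries, with MYH11 as the most abundant. L − N replicate 1 was the high library here. The 3 erythrocyte markers, led by HBB, summed to 753, 62.6 and 514 CPM in L − N, 26.5 to 81.9 CPM in L + N, 31.8 to 55.3 CPM in H − N and 28.1, 293 and 212 CPM in H + N, with 1 called lower in L + N (AHSP). The 5 endothelial markers, led by VWF, summed to 1066 to 1559 CPM in L − N and 753 to 1175 CPM in the other libraries, with PECAM1 called lower in L + N. Of the stromal markers VIM was called lower in H − N and H + N, and the list, led by COL3A1, summed to a mean of 24183 CPM in L − N and 30737.5 to 38119 CPM in the other groups. The part of these cells in the values of INHBB, BMP2 and GREM1 was not tested.

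The other marker lists moved less with L − N or in both directions. For the endometrium list, ACP5 (uteroferrin) was called lower in each comparison with L − N, HOXA10 higher in L + N and H + N, and ESR1 and PGR higher in H + N. Of the 6 epithelial markers, led by CDH1, 0 were called by edgeR or DESeq2 in the comparisons with L − N, with 0, 3 and 0 at an unadjusted p under 0.05 in L + N, H − N and H + N. The 4 T and NK cell markers summed to 42.4 to 150 CPM in L − N and 60.4 to 118 CPM in the others. The 3 neutrophil markers stood out in 1 library, H − N replicate 3, at 96.3 CPM, the library with the highest GREM1. The mesothelial markers summed to 0.470 to 2.35 CPM over the 12 libraries.

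The genes whose log2 CPM followed the 3 leading genes most closely over the 12 libraries were sought among 13590 genes with a mean of at least 1 CPM and a symbol. For INHBB they were EPOP (Pearson r = 0.96, Spearman rho = 0.92), MED15 (r = 0.96, rho = 0.87) and RNF216 (r = 0.96, rho = 0.88). For TGFB1 they were RCSD1 (r = 0.97, rho = 0.88), STK10 (r = 0.96, rho = 0.87) and WDR91 (r = 0.96, rho = 0.82). For BMP2 they were PLSCR4 (r = 0.93, rho = 0.95), MOB3C (r = 0.92, rho = 0.82) and VCL (r = 0.91, rho = 0.81). The 12 points fall into 4 diet groups, of which L − N lies apart, and the values describe likeness of pattern alone. STK10 overlaps LOC110257341 over 1861 bp and VCL overlaps LOC102160869 over 5 bp, each on the opposite strand.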

How the data were processed

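Endometrium RNA of 12 sows was measured by poly(A) RNA-seq from strand-specific libraries. The authors deposited 1 table with a read count, without normalization, and an FPKM value per gene and library. The submitters' processing notes name fastp 0.22.0, HISAT2 2.1.0, HTSeq 0.9.1 and the build Sscrofa11.1, and the counting strand is not given in the sources used here. The deposited FPKM values differed from those computed from count, gene length and library total by at most 1.91e-05 percent, and were used only for levels between genes. Counts were analysed in R 4.3.3 with edgeR 4.0.16, using filterByExpr, TMM and a quasi-likelihood fit with one mean per group (8 residual degrees of freedom, biological coefficient of variation 0.269), tested on simulated data beforehand. Chi-square per gene between replicates (each of a different sow) was 23.3 to 99.8. Log2 CPM used a prior count of 2. Alternatives were DESeq2 1.42.0, RLE scaling, other filters, fits of 2 groups, a replicate block and each library left out. The members and the gene lists, written from general knowledge, were chosen with earlier results of these data known. Named were all members, every list gene called in a comparison (up to 4 per list and comparison, by smallest p; for a list with none, the 2 with the smallest p over the groups), and the 3 genes most correlated with each of the 3 members of smallest p over the groups. The result of 1 gene that this rule names is not reported here. Of the marker lists, MSLN and PAG2 were not analysed here.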

Additional observations from a re-analysis of the deposited data

Results flagged for a closer look

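In TGFB1 and INHBA the libraries lay on opposite sides of their reference mean at the 2 levels of the other factor. How many of all genes show this pattern was not counted. For NCG in TGFB1, all 3 L + N libraries were below the mean of L − N and all 3 H + N libraries above the mean of H − N, with an interaction of 1.01 on the log2 scale (SE 0.32, edgeR's adjusted p = 0.287). The margin was small for H + N replicate 2, at 75.94 CPM against an H − N mean of 75.66 CPM. L − N replicate 1 (98.6 CPM) lay within the range of L + N. For NCG in INHBA, all 3 L + N libraries were below the mean of L − N and all 3 H + N libraries above that of H − N. For DF in INHBA, all 3 H − N libraries were below the mean of L − N and all 3 H + N libraries above that of L + N. Here H + N replicate 2, at 3.64 CPM, was close to the L + N mean of 3.46 CPM. The interaction of INHBA, which is the same for both factors, was 1.41 on the log2 scale (SE 0.59, edgeR's adjusted p = 0.355). With all 12 libraries neither interaction passed the test, while that of TGFB1 was called without L − N replicate 1 (1.27, edgeR's adjusted p = 0.0129). The differences of TGFB1 were −0.76 (SE 0.23) in L + N against L − N and 0.24 (SE 0.23) in H + N against H − N. For INHBA, the larger differences were −1.09 (SE 0.42) in H − N against L − N and 0.93 (SE 0.42) in H + N against H − N. The latter was 0.62 without H − N replicate 1. The value of INHBA was −0.47 (SE 0.41) in L + N against L − N, which was −0.12 without L − N replicate 1. In H + N against L + N it was 0.31 (SE 0.41), which was 0.12 without H + N replicate 3. With all 12 libraries, none of these differences passed edgeR's test.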

How the results depend on the processing

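The number of the 10 genes called was 3 for any difference among the 4 groups, and 0 for DF, 0 for NCG, 0 for the interaction, 1 for L + N, 2 for H − N and 1 for H + N against L − N. With each library left out in turn, these numbers ran from 0 to 3, 0 to 0, 0 to 0, 0 to 1, 0 to 2, 0 to 2 and 0 to 3, and stayed at 0 for H + N against H − N and against L + N. Replicate numbers were not taken as pairs, since the deviations of libraries with the same number correlated at a median of −0.0413. A block for replicate number gave 0 for any difference and 0 for H − N, and kept 1 each for L + N and H + N. Fits of 2 groups gave 0 for H − N and 0 for H + N, with fewer libraries for the estimate of spread, and of the 84 genes of the 8 lists they called 0 in H − N (9 in the fit of all libraries) and 2 in H + N (6). Without a fold threshold, H − N had 3 and H + N had 2, by construction. For the other counts the cause was not tested. DESeq2, RLE scaling and other filters kept the numbers of the 10 genes, except for 2 instead of 3 for any difference without a filter on low counts, but DESeq2 called 3365 of all genes for any difference against 1068 by edgeR, 290 against 4 for DF, 913 against 446 for H − N and 988 against 549 for H + N. The 37 log2 fold changes followed were those of called genes and of INHBB, TGFB1 and BMP2. Of 658 alternatives for them, 477 kept direction and side of the threshold, 178 kept direction but lost the threshold, 3 gained it and 0 reversed. Other members did change sign, as BMP4, FST and GREM1 did in H − N on leaving out 1 library. Low counts limit FST and INHBA (13 to 56 and 23 to 108 per library).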
